A study of Mus musculus with 18 samples.

Results

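The genes described here are the solute carrier (SLC) transporters in a count table of mouse brain macrophages. They were taken by name, as every gene of the table whose symbol begins with Slc, a family number, the letter a and a member number. Slc2a5, Slc1a3, Slc40a1, Slc11a1 and pseudogene names were left out. This gave 188 of 13043 genes, of which 156 passed the filter on low counts and were tested, among 10597 tested genes in all. The other 32 averaged at most 5.23 CPM (counts scaled to library size) over the 18 libraries. The choice rests on symbols alone, so it takes in 5 genes that encode no carrier and misses the nucleotide sugar carriers of family 35 whose symbols carry another letter than a, as well as the Slco genes.

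RNA was measured by bulk MARS-seq, a 3' method that counts unique molecular identifiers (UMIs), in sorted brain macrophages of bone marrow chimaeras. The recipients of every group were lethally irradiated wild-type mice of the labelled strain C57BL6/C, examined 32 weeks after they received marrow from donors carrying Ms4a3-Cre, R26-TdTomato and Cx3cr1-gfp. Ms4a3-Cre is driven from a gene active in granulocyte-monocyte progenitors, so TdTomato stays on in their progeny. Cells with GFP and TdTomato were taken as monocyte-derived, cells with GFP alone as derived from haematopoietic stem cells (HSC) without that label, and cells without either colour as host. Microglia, taken from the brain after its surface had been washed, gave 4 libraries for each of the 3 origins (host, monocyte and HSC). Macrophages of the leptomeninges, the brain surface, gave 4 libraries for the monocyte origin and 2 for the HSC origin. Host cells had thus been irradiated in place while donor cells had not, and donor cells carried a Cx3cr1-gfp allele that host cells lacked, so origin, irradiation and this allele cannot be told apart. The labels do not say that replicates were separate mice, so p-values measure only the spread between these samples, which may be technical.

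SLC proteins are membrane carriers that move nutrients, ions and metabolites across the plasma membrane and the membranes of organelles, mostly by facilitated diffusion or by coupling to a gradient of sodium, protons or another solute. They are numbered by sequence family, and the family largely tells the substrate: families 1, 6, 7, 36 and 38 carry amino acids, family 2 glucose and related sugars, family 25 solutes across the inner mitochondrial membrane, and families 30 and 39 zinc. In macrophages they feed glycolysis, export amino acids and nucleosides freed in lysosomes after engulfment, and recycle haem and iron.

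Total counts ran from 154727 to 2440234 per library, and 3 counts corresponded to between 1.05 and 23 CPM. HSC-derived microglia replicates 3 and 4 (264795 and 317872 counts) and HSC-derived leptomeningeal replicate 2 (154727) were much shallower than the others, and their levels are coarse. Each group expressed 8 of 8 microglial markers. Their summed level was 19004 to 21895 CPM in host microglia, 9640 to 11702 in both donor-derived microglia groups and 2952 to 4939 in leptomeningeal macrophages. These markers include Cx3cr1, the gene that carries the gfp allele in donor cells, and the part of that allele in the sums was not tested. Markers of border macrophages summed to 37.3 to 47.5 CPM in host microglia, 1821 to 2654 in donor-derived microglia and 5615 to 11530 in leptomeningeal macrophages. SLC genes together took 0.891% to 0.962% of the counts of host libraries and 0.787% to 0.846% in monocyte-derived microglia. The share was 0.442% to 0.711% in HSC-derived microglia, 0.550% to 0.632% in monocyte-derived leptomeningeal macrophages, and 0.433% and 0.560% in the HSC-derived pair. Ribosomal protein transcripts took 4.94% to 5.84% of host counts and up to 18.8% elsewhere, with the highest share in the shallowest library. Their part in the results was not tested. In bulk samples, fewer cells of a type and less RNA per cell cannot be told apart.

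The most abundant members by mean CPM over all libraries were Slc25a3, the mitochondrial phosphate carrier, at 415, Slc3a2, the heavy chain of amino acid exchangers, at 392, and Slc25a5, an ADP/ATP carrier, at 314. Slc16a6, a monocarboxylate-family carrier, followed at 269 and Slc29a3, a lysosomal nucleoside carrier, at 245. Counts from the 3' end do not grow with transcript length, so these levels can be set side by side, although capture efficiency may differ between genes. The order differed between groups: Slc16a6 stood at 373 to 399 CPM in host microglia and at 61.3 and 137 in HSC-derived leptomeningeal macrophages.

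The sequences shown are upstream stretches of 4 members that carry the main patterns: 2 that were higher in both donor-derived microglia groups (Slc38a6 and Slc28a2) and 2 that were lower (Slc46a1 and Slc36a1). Each runs 5′ to 3′ on the plus strand and ends before the gene's start, from RefSeq on build GRCm38.p6. Slc38a6 is at chr12:73286598-73286778, Slc28a2 at chr2:122426185-122426434, Slc46a1 at chr11:78465451-78465696 and Slc36a1 at chr11:55204090-55204339. Capitals mark the E-box CACGTG, the only one of 4 searched motifs found in these 4 stretches.
Slc38a6: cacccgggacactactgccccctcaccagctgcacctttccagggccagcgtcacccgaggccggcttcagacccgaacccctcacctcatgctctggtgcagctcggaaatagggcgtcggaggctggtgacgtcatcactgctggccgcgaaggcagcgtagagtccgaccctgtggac
Slc28a2: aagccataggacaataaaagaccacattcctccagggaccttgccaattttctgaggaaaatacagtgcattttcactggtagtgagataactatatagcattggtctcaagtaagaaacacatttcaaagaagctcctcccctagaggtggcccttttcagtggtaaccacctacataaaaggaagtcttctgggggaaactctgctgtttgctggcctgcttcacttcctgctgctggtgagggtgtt
Slc46a1: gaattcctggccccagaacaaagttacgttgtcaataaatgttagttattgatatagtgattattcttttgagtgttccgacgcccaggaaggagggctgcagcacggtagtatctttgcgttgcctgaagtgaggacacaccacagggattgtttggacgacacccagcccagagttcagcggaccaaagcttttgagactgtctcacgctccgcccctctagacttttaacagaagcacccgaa
Slc36a1: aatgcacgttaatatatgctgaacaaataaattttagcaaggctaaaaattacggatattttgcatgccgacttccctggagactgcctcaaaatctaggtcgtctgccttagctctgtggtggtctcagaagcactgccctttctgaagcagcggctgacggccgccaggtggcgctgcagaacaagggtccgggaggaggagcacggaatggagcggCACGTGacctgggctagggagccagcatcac

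The E-box in Slc36a1 begins 31 bases before the RefSeq start. The shares below come from the whole 250 bases before the RefSeq start; the printed stretches of Slc38a6 and Slc46a1 are shorter because they stop before the earlier GENCODE start. Over those 250 bases, CACGTG stood in 17 of the 144 members with a RefSeq entry (11.8%) and in 6.05% of 27025 genes. The 27025 are all genes with an entry, a wider set than the 13043 genes of the count table. No share was tested against theirs. GAGGAAGT, a PU.1 motif, stood in 3.47% of members and 2.44% of genes, TGANTCA (AP-1) in 8.33% and 6.87%, and CTANNNNTAG (MEF2) in 4.86% and 3.23%, each searched on both strands. Among the members higher in both donor-derived microglia groups than in host microglia, 10 had an entry: none held the E-box or the PU.1 motif, 1 held the AP-1 and 1 the MEF2 motif. Among those lower in both groups, 21 had an entry: 2 held the E-box, 2 the PU.1, 2 the AP-1 and 1 the MEF2 motif. These are matches of letters and not measured sites.

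Donor-derived microglia differed from host microglia in both directions. In monocyte-derived microglia, 21 members were higher and 34 lower by edgeR's quasi-likelihood test at an adjusted p of 0.05. The 55 are 35.3% of the tested members, beside 30.2% of all tested genes, with 15.1% of all genes higher and 15.1% lower. In HSC-derived microglia, 13 members were higher and 36 lower, 31.4% beside 29.4% of all genes, of which 16.2% were higher and 13.1% lower. Without the 3 shallow libraries the HSC-derived counts were 15 higher and 37 lower. The median log2 fold change of tested members was -0.18 and -0.21, against 0.01 and 0.00 over all tested genes. Both comparisons use the same host libraries, so their calls are not independent: 13 members were higher in both, 28 lower in both, and none was called in opposite directions. The shares called were thus close to those of all genes, and the members leaned toward lower values in donor-derived cells.

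**Figure D1:**
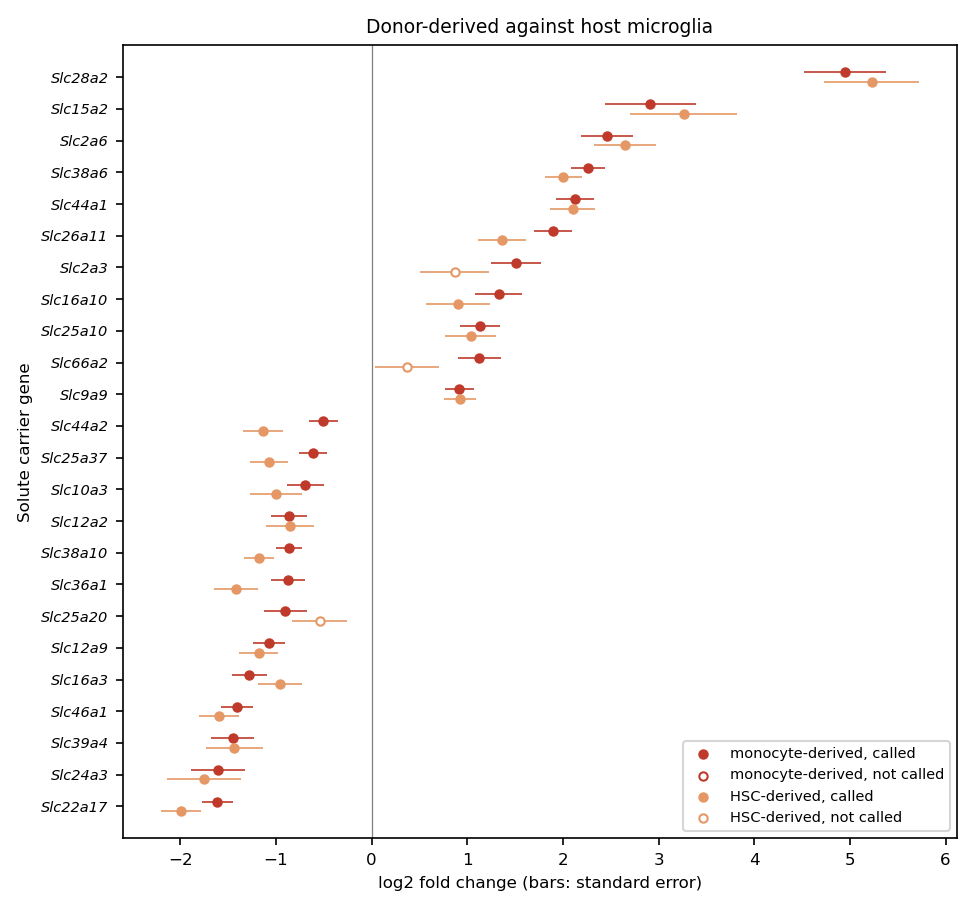
Log2 fold change (horizontal axis, bars give the standard error) of the solute carrier genes with the largest called differences from host microglia, in monocyte-derived and HSC-derived microglia. Filled points passed the threshold and open points did not. Slc28a2, Slc15a2 and Slc2a6 lie at the high end and Slc22a17 and Slc24a3 at the low end in both comparisons.

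Among amino acid carriers, Slc38a6 (chromosome 12, 73286779 to 73354049, plus strand, mm10), a member of the sodium-coupled glutamine carrier family, was the most abundant member that was higher in donor cells. Its level was 52, 52.5, 55.2 and 57.9 CPM in host libraries and 284, 259, 245 and 259 in monocyte-derived microglia. In HSC-derived microglia it was 256, 258, 178 and 144. No donor-derived microglia library came near a host library, and the shallow replicates 3 and 4 were the lowest of the HSC-derived group. The log2 fold change against host was 2.27 ± 0.18 (SE, edgeR adjusted p = 2.3e-12) for monocyte-derived and 2.01 ± 0.19 (adjusted p = 3.19e-10) for HSC-derived microglia. Slc1a5, a sodium-dependent exchanger of glutamine and other neutral amino acids, had 2.09 to 4.52 CPM in host microglia, 14.3 to 18.9 in monocyte-derived and 10.2 to 23.4 in HSC-derived microglia, with log2 changes of 2.36 ± 0.28 and 2.10 ± 0.38. Slc15a2, a proton-coupled peptide carrier, had 0 to 5.59 CPM in host and 15.1 to 24.7 in monocyte-derived microglia. HSC-derived replicates gave 29.6, 23.2, 0 and 42.8 CPM for Slc15a2, so that shallow replicate 3 alone fell within the host range. Both changes of Slc15a2 were called (log2 2.91 and 3.26).

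Slc28a2 (chromosome 2, 122426477 to 122461137, plus strand), a sodium-coupled nucleoside carrier with a preference for purines, was close to absent in host microglia. Host libraries gave 0, 0.452, 1.05 and 0 CPM. Monocyte-derived microglia gave 22.3, 15.6, 17.4 and 17.5 CPM and HSC-derived microglia 19.7, 21.9, 35.7 and 19.5. Every donor-derived microglia library stood above every host library, and the log2 changes were 4.95 ± 0.43 (edgeR adjusted p = 1.66e-11) and 5.23 ± 0.50 (adjusted p = 2.38e-10). A neighbouring gene of the same family, annotated as Gm14085, has no row in the table, and the sources used here do not say how reads shared between the pair were counted. The nucleoside carriers of family 29 did not share this direction: Slc29a1 and Slc29a3 had log2 changes of -0.36 and -0.21 in monocyte-derived microglia, neither called, and fell by 0.48 and 0.53 in HSC-derived microglia. The fall of Slc29a1 (adjusted p = 0.0397) was lost without any 1 of 6 libraries, among them each host library (adjusted p up to 0.182).

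Among sugar carriers, Slc2a6, a glucose transporter family member of lysosomes, rose in both donor-derived groups while Slc2a1, the widely expressed glucose transporter of the plasma membrane, fell in both. Slc2a6 had 8.54, 9.5, 5.59 and 5.33 CPM in host microglia, 43, 30.5, 42.5 and 42.9 in monocyte-derived microglia and 42.3, 27.3, 86.6 and 58.4 in HSC-derived microglia. Its log2 changes were 2.46 ± 0.27 (edgeR adjusted p = 7.56e-09) and 2.65 ± 0.33 (adjusted p = 8.91e-08). Slc2a1 had 46.3, 62.0, 61.4 and 59.3 CPM in host microglia, 30.9 to 34.9 in monocyte-derived and 23.4 to 40.8 in HSC-derived microglia, with log2 changes of -0.81 ± 0.17 and -0.87 ± 0.22. For either gene no donor-derived microglia library overlapped the host range. Slc2a3, a high-affinity glucose transporter, had 10.5 to 12.2 CPM in host and 22.3, 23.8, 32.1 and 54.3 in monocyte-derived microglia, where it rose by 1.51 ± 0.26. In HSC-derived microglia its libraries spread from 10.2 to 28.2 CPM and the log2 change of 0.87 was not called (edgeR adjusted p = 0.0662), although it was called in some alternatives, the fit of both groups alone among them. Slc50a1, a sugar carrier found mainly in the Golgi, fell by 0.65 and 0.48, but the second call was lost once the shallow libraries were left out (-0.39, adjusted p = 0.0754).

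Carriers of other substrates rose as well. Slc44a1 (chromosome 4, 53440413 to 53622478, plus strand), a choline carrier, had 14.9, 16.7, 19.2 and 24.6 CPM in host, 76.8, 78.2, 101 and 73.8 in monocyte-derived, and 88.8, 57.4, 76.4 and 117 in HSC-derived microglia. Both donor-derived groups lay above the host range, and the log2 changes were 2.13 ± 0.20 and 2.10 ± 0.23. Its relative Slc44a2 went the other way and fell by 0.50 and 1.14. Slc26a11, a sulfate carrier, rose by 1.90 and 1.36 on the log2 scale and Slc9a9, a sodium/proton exchanger of endosomes, by 0.92 and 0.93. Slc14a1, a urea carrier, rose from 0.666 to 2.79 CPM in host libraries to 9.52 to 14.8 in monocyte-derived microglia. In HSC-derived microglia it gave 7.04, 12.3, 5.10 and 0 CPM, and its call (log2 change 1.75) was lost when replicate 2 was left out (1.15, adjusted p = 0.234). The mitochondrial dicarboxylate carrier Slc25a10 rose by 1.14 and 1.04. Slc16a10, a carrier of aromatic amino acids, rose by 1.33 in monocyte-derived microglia; its rise of 0.90 in HSC-derived microglia (adjusted p = 0.0385) was lost without any 1 of 5 libraries, with adjusted p up to 0.24.

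The members lower in donor cells included a folate carrier, a lipocalin receptor, a calcium exchanger and a zinc importer. Slc46a1 (chromosome 11, 78465697 to 78472059, plus strand), the proton-coupled folate transporter, had 116, 114, 119 and 103 CPM in host microglia. It had 45.3, 46.9, 40.4 and 37.3 CPM in monocyte-derived and 39.5, 42.4, 25.5 and 31.1 in HSC-derived microglia. All host libraries stood above all donor-derived microglia libraries, with log2 changes of -1.41 ± 0.17 (edgeR adjusted p = 2.37e-08) and -1.59 ± 0.21 (adjusted p = 3.08e-07). Slc22a17 (chromosome 14, 54906304 to 54913132, minus strand), known as a receptor for lipocalin-2, had 147, 159, 152 and 121 CPM in host, 49.3, 47.7, 39 and 54.0 in monocyte-derived, and 43.7, 42.4, 35.7 and 7.78 in HSC-derived microglia. The lowest value came from the shallow replicate 4, and the other 3 lay close to one another. Log2 changes of Slc22a17 were -1.61 ± 0.16 and -1.99 ± 0.21.

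Slc24a3, a potassium-dependent sodium/calcium exchanger, fell by 1.61 and 1.75 on the log2 scale, from 30.3 to 37.7 CPM in host to 9.05 to 13.5 in monocyte-derived and 0 to 14.1 in HSC-derived microglia. Slc39a4, a zinc importer, had 38.4 to 46.2 CPM in host and 13.2 to 18.3 in monocyte-derived microglia. In HSC-derived microglia 3 libraries gave 9.86 to 15.3 CPM and the shallow replicate 4 gave 42.8, inside the host range. The log2 changes of Slc39a4 were -1.45 and -1.43, and -2.04 in HSC-derived microglia without the shallow libraries. The class of zinc, iron, copper and haem carriers was set by family number. It lacks Slc40a1 and Slc11a1, which were left out, and Slc25a37, which is counted with the mitochondrial carriers. In this class no tested member was higher in either donor-derived group, and 5 of 22 were lower in each: Slc31a1, a copper importer, and Slc39a4, Slc39a7, Slc39a12 and Slc39a13 of the zinc family. These are 22.7% lower and 0% higher, beside 15.1% and 13.1% of all genes lower and 15.1% and 16.2% higher; the difference was not tested. Slc16a3, the lactate exporter of glycolytic cells, fell by 1.28 and 0.96, although shallow HSC-derived replicate 3 (71.3 CPM) lay within the host range of 63.5 to 76.5.

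Amino acid export carriers were among the lower members. Slc7a7, which exchanges cationic for neutral amino acids, had 222 to 257 CPM in host, 128 to 157 in monocyte-derived and 89.5 to 141 in HSC-derived microglia (log2 changes -0.70 ± 0.14 and -0.99 ± 0.16). Slc7a8, a neutral amino acid exchanger, fell by 0.51 and 0.89; its call in monocyte-derived microglia was lost without host replicate 2 (-0.39, adjusted p = 0.0646). Slc36a1, a proton-coupled amino acid carrier of lysosomes, had 131, 138, 132 and 97.2 CPM in host, 88.8, 62.6, 60.6 and 58.7 in monocyte-derived, and 56.4, 56.0, 35.7 and 15.6 in HSC-derived microglia. Both donor-derived groups lay below the host range, and the log2 changes were -0.87 ± 0.18 and -1.42 ± 0.23. Slc38a10, another member of the glutamine carrier family, fell by 0.87 and 1.17. The heavy chain Slc3a2, the partner of Slc7a7 and Slc7a8, was not called in either comparison (means 430 ± 30.6 in host, 453 ± 23.8 in monocyte-derived and 404 ± 57.9 CPM in HSC-derived microglia, SD, n = 4), nor was Slc7a5, whose group means lay at or below 7.62 CPM. Slc7a5 was called in monocyte-derived microglia without the shallow libraries and without replicate 4 of that group.

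Some members had nearly all their microglial counts in host libraries. Slc5a10, a sodium-coupled sugar carrier, had 62 counts in host, 1 in monocyte-derived and 0 in HSC-derived microglia, a ratio of 43.9 (95% exact interval 7.60 to 1763, counting error only) and at least 4.91-fold, taking 3 counts over the group. Slc36a2 had 74, 6 and 2 counts, and Slc39a12 had 133, 15 and 7. These genes, and Slc13a4 and Slc6a20a described with the leptomeningeal cells, fall outside the rule for named genes and were chosen after their values were seen. Markers of choroid plexus epithelium moved with the same comparison: 5 of 5 were detected in host microglia, with a summed level of 2064 to 3502 CPM against 6.27 to 160 in monocyte-derived and 13.7 to 479 in HSC-derived microglia. Their part in these counts was not tested, nor was it for the other members lower in donor-derived microglia, such as Slc46a1, Slc22a17 and Slc12a2.

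**Figure D2:**
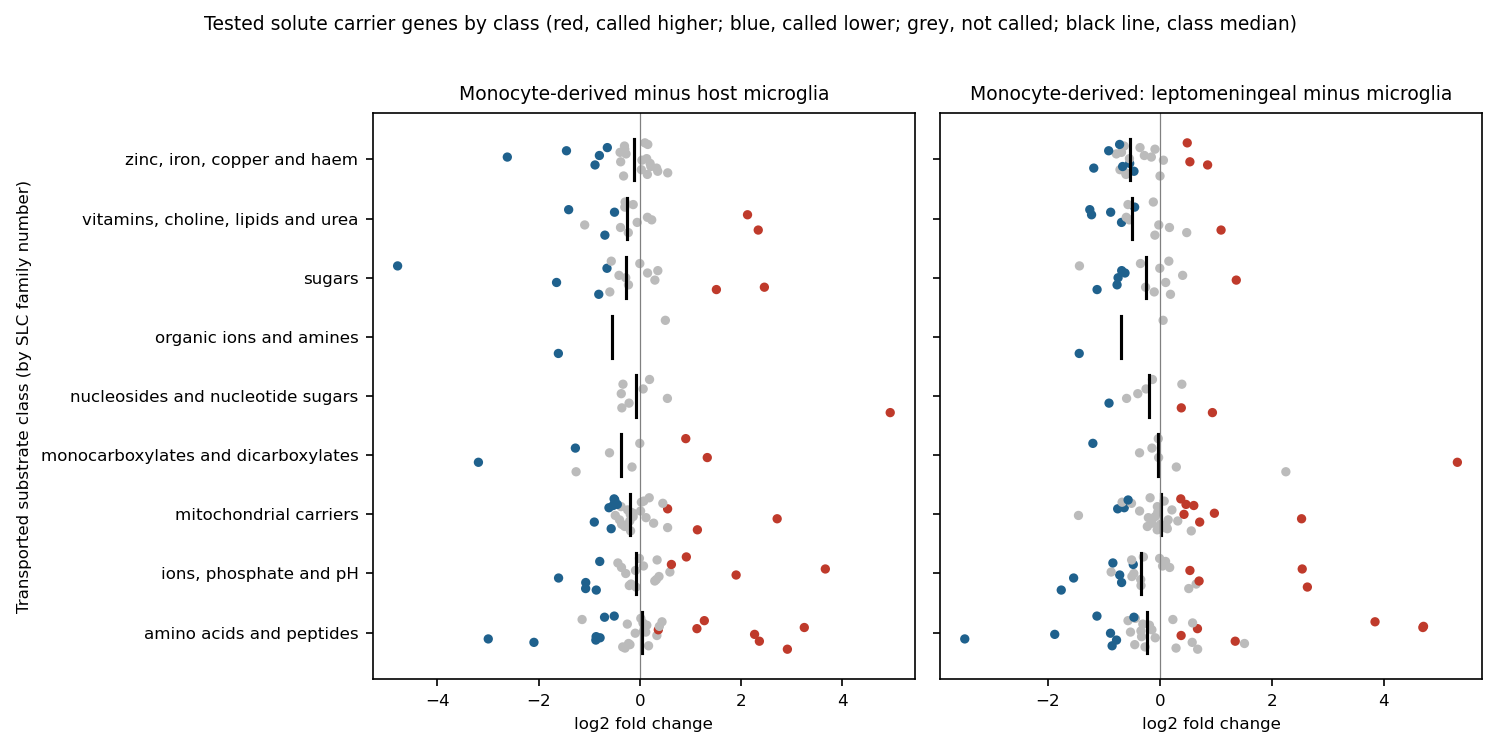
Log2 fold change (horizontal axis) of every tested solute carrier gene, grouped by substrate class (vertical axis), in monocyte-derived against host microglia and in leptomeningeal macrophages against microglia of monocyte origin. Points stand for genes and black lines for class medians. Of 31 mitochondrial carriers, 3 were higher and 7 lower in the first comparison (9.68% and 22.6%, beside 15.1% and 15.1% of all genes). In the second, 7 were higher and 3 lower (22.6% and 9.68%, beside 19% and 16.3% of all genes). These differences were not tested.

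Substrate classes were set by family number, so a class can hold members with another substrate. Slc16a10, a carrier of aromatic amino acids, and Slc13a4, a sulfate carrier, are counted with the monocarboxylates and dicarboxylates. Counts per substrate class are small and are read against the shares of all genes, 15.1% higher and 15.1% lower in monocyte-derived and 16.2% higher and 13.1% lower in HSC-derived microglia. The 30 tested amino acid and peptide carriers split into 7 higher and 7 lower in monocyte-derived microglia and 3 higher and 8 lower in HSC-derived microglia, with medians of 0.04 and -0.14. The 31 mitochondrial carriers split into 3 and 7, and 2 and 3, with medians of -0.19 and -0.16. Among these, Slc25a37, the mitochondrial iron importer, fell by 0.61 and 1.07, and Slc25a20, the carnitine/acylcarnitine carrier, fell by 0.90 in monocyte-derived microglia and was not called in HSC-derived microglia (-0.54). Slc25a5 had 346 to 384 CPM in host, 243 to 267 in monocyte-derived and 260 to 315 in HSC-derived microglia. Its log2 changes were -0.51 ± 0.13 and -0.36 ± 0.14, and the second, at an adjusted p of 0.0498, was lost when any 1 of several libraries was left out, with adjusted p up to 0.135. The 23 carriers of ions, phosphate and protons split into 4 and 5, and 3 and 6. In that class the chloride cotransporter family fell together, with Slc12a2 (-0.86 and -0.85), Slc12a4 (-1.07 and -1.31) and Slc12a9 (-1.07 and -1.18). The call of Slc12a2 in HSC-derived microglia was lost without replicate 1 of that group (-0.63, adjusted p = 0.0896). The 14 carriers of vitamins, choline, lipids and urea split into 2 and 3, and 2 and 4, and the 15 sugar carriers into 2 and 4, and 1 and 5.

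Genes that work with these carriers were counted from lists set beside them, where 30.2% (monocyte-derived) and 29.4% (HSC-derived) of all genes were called in either direction. Several counts lie near that share and none was tested against it. Of 9 tested genes of the amino acid response, 1 was higher and 3 were lower in monocyte-derived microglia, and none higher and 3 lower in HSC-derived microglia. The lower ones in both were Phgdh (-2.46 and -1.80) and Psat1 (-3.16 and -3.32), enzymes of serine synthesis, and Sesn2 (-1.93 and -2.47), a leucine sensor. Of 7 genes of the oxidative stress response, 2 and 3 were higher and 1 was lower in each. Hypoxia genes had 2 and 1 lower of 6 and none higher. Carrier partners and lysosomal nutrient sensors had 1 higher and 3 lower, and 2 higher and 1 lower, of 10. Carriers with other names had 1 and 2 higher and 3 and 5 lower of 20.

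Between monocyte-derived and HSC-derived microglia no member was called by edgeR's test (1.89% of all tested genes were, 0.123% higher in monocyte-derived cells and 1.76% lower). Of the members, 19 had an unadjusted p below 0.05. The share of all genes at that cut is not given here, so the count is not read as a result about the members. DESeq2 called 1 member, Slc16a6 (log2 change 0.74, adjusted p = 0.0476). Slc16a6 had 441, 358, 365 and 381 CPM in monocyte-derived microglia and 327, 314, 107 and 125 in HSC-derived microglia, where the low values are those of shallow replicates 3 and 4. By edgeR the difference was 0.71 ± 0.23 (adjusted p = 0.117), and host libraries stood at 373 to 399. Against host microglia Slc16a6 was called lower in HSC-derived microglia (-0.71, adjusted p = 0.0219) and had a log2 change of -0.27 without the shallow libraries (adjusted p = 0.117). The next members by p were Slc44a2 (0.64 ± 0.22) and Slc25a36, a mitochondrial pyrimidine nucleotide carrier (0.58 ± 0.20). Without HSC-derived microglia replicate 1, edgeR called Slc16a6 (0.94, adjusted p = 0.0167), Slc25a25 (2.97, adjusted p = 0.0038) and Slc25a36 (0.82, adjusted p = 0.0347), and without replicate 2 it called Slc16a6 (0.91, adjusted p = 0.0253). A p above the threshold does not show that the levels were equal.

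**Figure D3:**
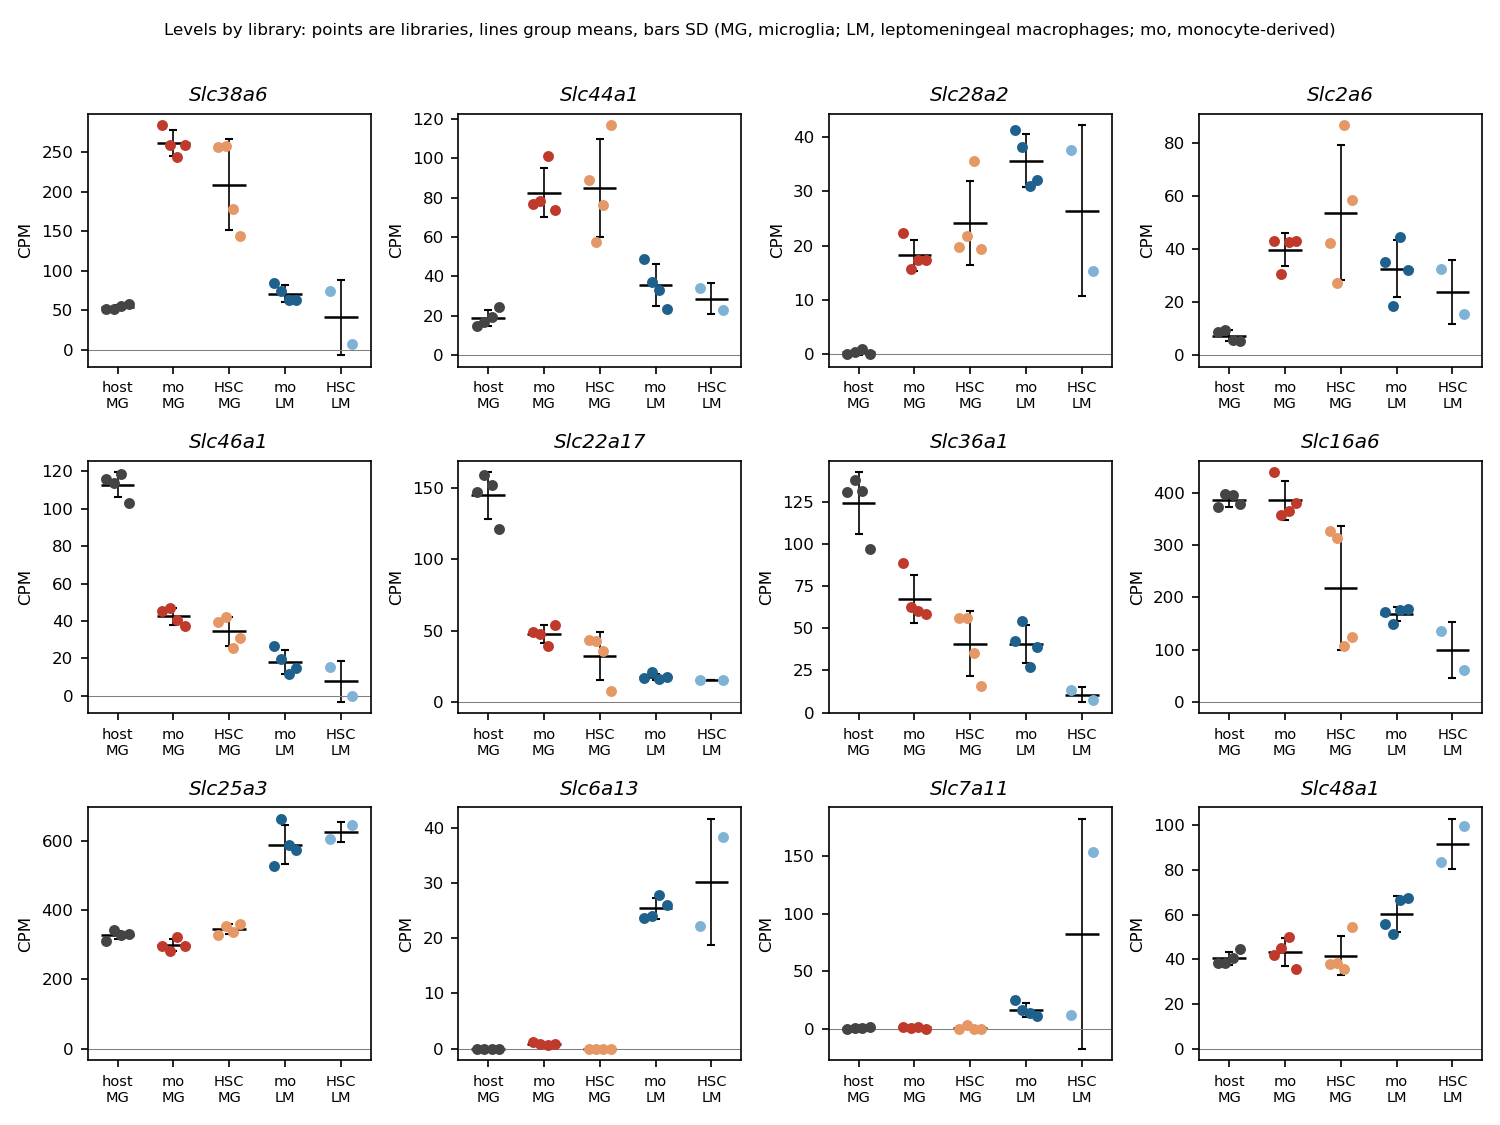
Level in CPM (vertical axis, from 0) of 12 solute carrier genes in each library, by group (MG, microglia; LM, leptomeningeal macrophages; mo, monocyte-derived). Points are libraries, lines group means and bars the SD. Slc38a6 stands at 144 to 284 CPM in donor-derived microglia and at or below 85.2 in host microglia and leptomeningeal macrophages, and Slc25a3 at 528 to 663 in leptomeningeal libraries and at most 358 elsewhere.

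Leptomeningeal macrophages were then set against microglia of the same origin, which asks how cells of 1 origin differed between the brain surface and the brain tissue. In the monocyte-derived cells 26 members were higher and 36 lower in leptomeningeal macrophages, 39.7% of the tested members beside 35.3% of all genes (19% higher, 16.3% lower). In HSC-derived cells 8 were higher and 12 lower, 12.8% beside 9.71% of all genes (5.75% higher, 3.96% lower). Without the shallow libraries the HSC-derived counts were 9 higher and 13 lower, and this fit, like any that leaves out 1 of the leptomeningeal pair, has 1 library in that group and assumes that it varies like the other groups. Leaving out HSC-derived leptomeningeal replicate 2 alone gave 6 calls, leaving out replicate 1 gave 8, and a fit of these 2 groups alone called none among 87 tested members. Medians were -0.16 in both, against -0.04 and -0.06 over all tested genes; with genes absent from 1 group set to their bound, the HSC-derived median was -0.12. Markers of neutrophils moved with the comparison in monocyte-derived cells, with a summed level of 1214 to 2851 CPM in leptomeningeal macrophages and 10.9 to 54.0 in microglia. In HSC-derived cells their sum was 99.7 and 278 against 0 to 20.4 CPM. Markers of monocytes summed to 609 to 884 CPM in monocyte-derived leptomeningeal macrophages and 54.4 to 88.9 in microglia, and to 314 and 548 against 97.3 to 133 in HSC-derived cells. Those of T and NK cells summed to 222 to 446 against 67.5 to 69.1 CPM, and to 153 and 237 against 0 to 82.0. Erythroid markers ranged widely, from 187 to 976 against 6.30 to 470 CPM, and at 367 and 3197 against 35.03 to 781. The part of these cells in the results was not tested.

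Slc38a6 and Slc44a1, both high in donor-derived microglia, were lower in leptomeningeal macrophages of either origin. Slc38a6 had 85.2, 74.3, 62.8 and 63.6 CPM in monocyte-derived leptomeningeal macrophages and 75.2 and 7.67 in the HSC-derived pair, the second from the shallow library. The log2 changes against microglia were -1.88 ± 0.18 (edgeR adjusted p = 4.04e-10) and -1.90 ± 0.30 (adjusted p = 3.55e-05). No leptomeningeal library reached a microglia library of its origin. Slc44a1 had 48.9, 37.1, 33 and 23.4 CPM, and 34.2 and 23 (log2 changes -1.22 and -1.35). Slc28a2, by contrast, had 41.2, 38.2, 31.1 and 32.1 CPM in monocyte-derived leptomeningeal macrophages, above each microglia library of that origin, and rose by 0.94 ± 0.22 (adjusted p = 0.00103). In the HSC-derived pair it had 37.6 and 15.3 CPM and was not called (0.53). Slc2a6 had 18.6 to 44.4 CPM in monocyte-derived leptomeningeal macrophages and was not called against microglia in either origin (-0.25 and -0.66).

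Several members lower in donor-derived than in host microglia were lower again in leptomeningeal macrophages. Slc46a1 had 26.6, 19.7, 11.4 and 14.7 CPM in the monocyte-derived and 15.4 and 0 in the HSC-derived group, with log2 changes of -1.25 ± 0.21 and -1.59 ± 0.48. The second (adjusted p = 0.0294) was lost without any 1 of 4 libraries, among them each of the leptomeningeal pair. Slc22a17 had 15.9 to 20.7 CPM in monocyte-derived leptomeningeal macrophages (-1.44 ± 0.21), and 15.4 and 15.3 in the HSC-derived pair (-1.24, not called). Slc12a2, the sodium-potassium-chloride cotransporter, had 6.02 to 9.08 CPM in the first and fell by 1.76 ± 0.27. Slc24a3 fell by 1.54, Slc7a8 by 1.12 and 1.13, and Slc36a1 by 0.77 and 1.89, the last again lost without any 1 of 4 libraries (adjusted p up to 0.223).

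Other members were not called between host and monocyte-derived microglia and were lower at the brain surface. In the fit of those microglia groups alone, Slc37a2 and Slc30a9 were called against host. Slc16a6 had 172, 149, 176 and 177 CPM in monocyte-derived leptomeningeal macrophages, less than any microglia library of that origin (-1.19 ± 0.22, adjusted p = 0.000189). Slc29a3 had 141 to 177 CPM there against 273 to 330 in microglia, and fell by 0.91 ± 0.14 and, in HSC-derived cells, by 0.72 ± 0.21. Slc37a2, a sugar phosphate carrier of macrophages, fell by 0.74 in monocyte-derived cells, as did Slc38a7, a lysosomal glutamine carrier, by 0.88. Slc30a9 and 5 other carriers of zinc or copper were also lower, while Slc31a1, Slc39a1 and the haem carrier Slc48a1 were higher. Of the 22 tested members of the class of zinc, iron, copper and haem carriers, 27.3% were thus lower and 13.6% higher. Over all genes 16.3% were lower and 19% higher, and the difference was not tested. The rise of Slc39a1 (0.54) was not called without microglia replicate 1 (0.48, adjusted p = 0.0619).

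Among members higher in leptomeningeal macrophages, the mitochondrial phosphate carrier Slc25a3 was the most abundant. It had 528, 663, 587 and 574 CPM in monocyte-derived and 605 and 644 in HSC-derived leptomeningeal macrophages. All 12 microglia libraries, host included, lay between 281 and 358 CPM. The log2 changes were 0.98 ± 0.13 (edgeR adjusted p = 3.34e-07) and 0.86 ± 0.17 (adjusted p = 0.000641). In monocyte-derived cells 7 of 31 tested mitochondrial carriers were higher (22.6%) and 3 lower (9.68%), beside 19% and 16.3% of all genes. The difference was not tested. The higher ones included both ADP/ATP carriers, Slc25a4 (0.47) and Slc25a5 (0.38), and the carnitine/acylcarnitine carrier Slc25a20 (0.71). The call of Slc25a5 was lost without monocyte-derived microglia replicate 2 or 3 or leptomeningeal replicate 2 (adjusted p up to 0.0946), and that of Slc25a20 without leptomeningeal replicate 4 (0.53, adjusted p = 0.122).

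Slc1a5 had 37.7, 44.8, 44.4 and 49.5 CPM in monocyte-derived leptomeningeal macrophages, above every microglia library, and rose by 1.35 ± 0.20. Slc48a1, which carries haem out of lysosomes, had 51.3 to 67.6 CPM against 35.7 to 50.2 in microglia, and 83.7 and 99.7 in the HSC-derived pair against 35.7 to 54.5. Its log2 changes were 0.49 ± 0.15 and 1.12 ± 0.26; the first was lost without microglia replicate 4 (0.41, adjusted p = 0.0561) or leptomeningeal replicate 4, and the second without leptomeningeal replicate 1 (1.22, adjusted p = 0.129). Slc9a3r1, a scaffold protein and no carrier, rose by 1.40 in monocyte-derived cells. Slc7a11, which imports cystine, had 11.4 to 25.2 CPM in monocyte-derived leptomeningeal macrophages and 0 to 1.72 in microglia (3.85 ± 0.70). Its HSC-derived leptomeningeal libraries gave 12 and 153 CPM, 27 counts in all against 2 in microglia, a ratio of 35.7 (95% exact interval 8.98 to 310). The high value is that of the shallow library, and the change fell short of the threshold (3.04, adjusted p = 0.0638) in the fit that leaves the deeper library alone in its group, with the spread taken from the other groups.

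Slc6a13, a GABA and taurine carrier, was found mainly in leptomeningeal libraries, with 23.8, 24, 27.9 and 26.1 CPM in monocyte-derived and 22.2 and 38.3 in HSC-derived macrophages. Host and HSC-derived microglia had 0 counts and monocyte-derived microglia 5. The log2 change in monocyte-derived cells was 4.70 ± 0.43 (edgeR adjusted p = 1.17e-09), and in HSC-derived cells the level was at least 15.9-fold higher, taking 3 counts over the microglia group. Slc6a20a, a proline carrier, had 63 counts in monocyte-derived leptomeningeal macrophages against 2 in microglia (ratio 32.9, 95% exact interval 8.73 to 277). Slc13a4, a sulfate carrier, had 59 against 1 (61.6, 10.6 to 2473) and Slc14a1 rose by 1.10. Markers of leptomeningeal fibroblasts and mural cells moved with these genes: of 6, only Col1a2 and Dcn are in the table, with a summed level of 23.4 to 37.4 CPM in monocyte-derived leptomeningeal macrophages against 0 to 0.697 in microglia, and 20.5 and 69.0 against 0 to 30.6 in the HSC-derived groups. Their part in the result was not tested.

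**Figure D4:**
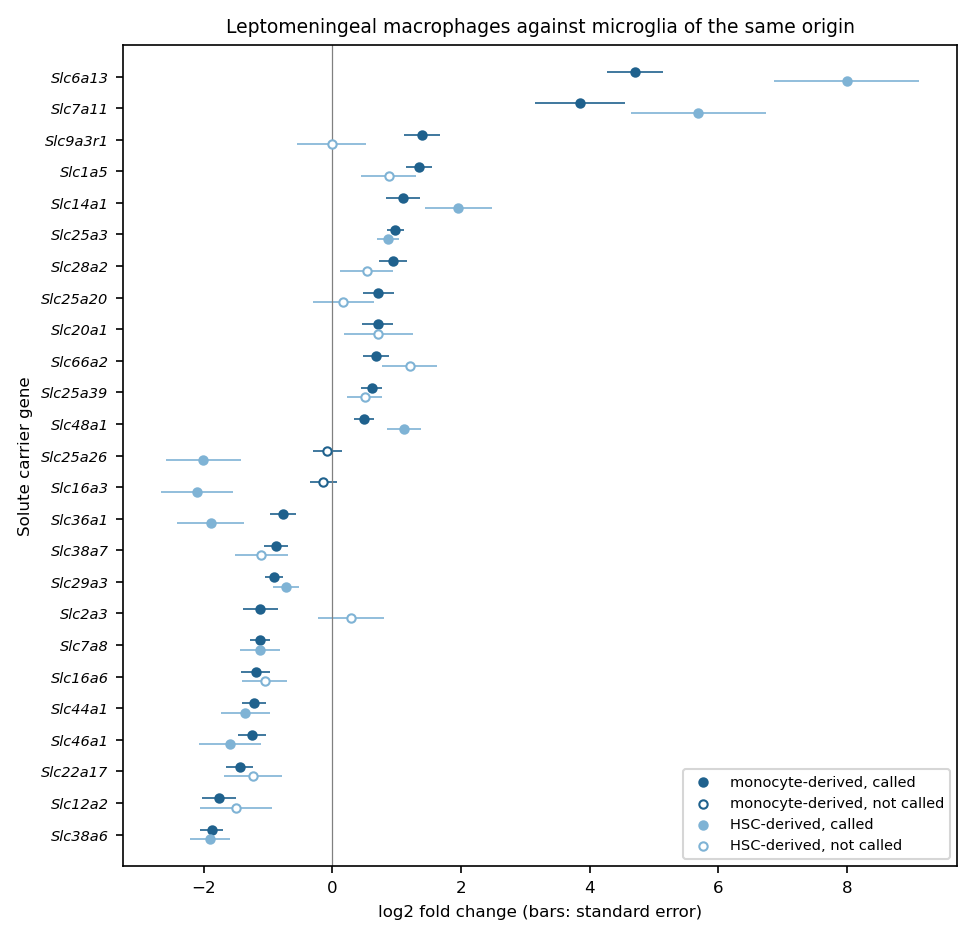
Log2 fold change (horizontal axis, bars give the standard error) of leptomeningeal macrophages against microglia of the same origin, for the solute carrier genes with the largest called differences, in monocyte-derived and HSC-derived cells. Filled points passed the threshold and open points did not. Slc6a13 and Slc7a11 lie at the high end and Slc38a6 at -1.88 and -1.90; the bars of the HSC-derived comparison are longer.

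Of the lists set beside the carriers, where 35.3% of all genes were called, the amino acid response had 4 of 9 genes higher and none lower in monocyte-derived leptomeningeal macrophages against microglia: Atf4 (0.89), Atf5 (0.93), Mthfd2 (1.31) and Nupr1 (1.25). The oxidative stress response had 3 higher and 1 lower of 7, and the hypoxia response 3 higher and 1 lower of 6. Carrier partners and nutrient sensors had 4 higher and 1 lower of 10, with the monocarboxylate carrier chaperone Emb at 61.0 CPM against 6.20 (3.25 ± 0.28). Carriers with other names had 3 higher and 7 lower of 20. In HSC-derived cells these lists had 1 and 0, 0 and 1, 0 and 0, 2 and 1, and 1 and 2 higher and lower, in the same order, where 9.71% of all genes were called.

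Between monocyte-derived and HSC-derived leptomeningeal macrophages no member was called by edgeR's test (0.302% of all genes were called), with 19 members at an unadjusted p below 0.05. DESeq2 called none and had 12 below 0.05 unadjusted. Without HSC-derived replicate 1, which leaves the shallow library alone in its group, 3 were called: Slc15a3 (1.79), Slc3a2 (1.32) and Slc7a11 (-3.11). No member was called for a dependence of the compartment difference on origin, that is in the interaction (0.0566% of all genes were called). At an unadjusted p below 0.05 there were 12, and with DESeq2 none was called and 10 were below 0.05 unadjusted. The shares of all genes at that cut are not given here, so these unadjusted counts are not read as results about the members. The smallest p was that of Slc16a3, whose compartment change was -0.14 in monocyte-derived cells and -2.11 in HSC-derived cells (difference 1.97 ± 0.61, edgeR adjusted p = 0.355), with 10.2 and 0 CPM in the HSC-derived leptomeningeal libraries. Its HSC-derived change was itself not called without leptomeningeal replicate 1 (adjusted p = 0.0811). Differences between the 2 origins in the number of called members are therefore not shown to be differences in response.

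**Figure D5:**
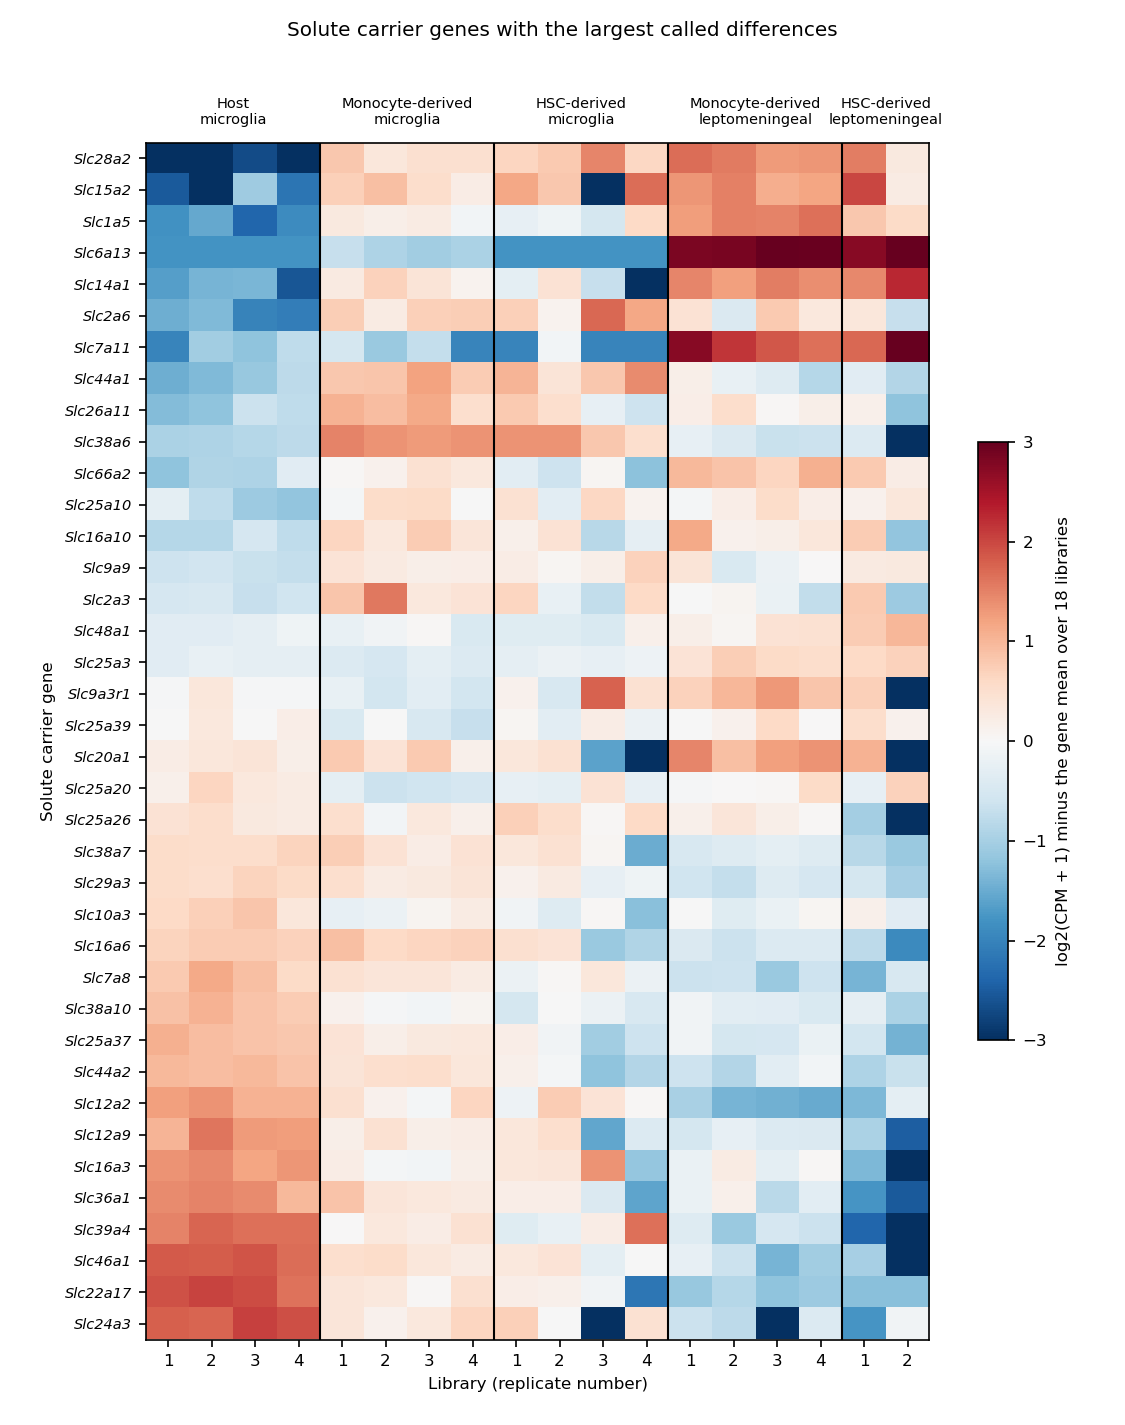
Level of the solute carrier genes with the largest called differences in each of the 18 libraries, as log2(CPM + 1) minus the gene's mean over all libraries (colour scale), with genes in rows ordered by their host level. Host microglia are low for Slc28a2 and Slc15a2 and high for Slc46a1 and Slc22a17, and the 2 leptomeningeal groups share high Slc6a13 and low Slc38a6.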

How the data were processed

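The authors deposited UMI counts per gene, made from bulk MARS-seq libraries aligned to mm10 per the submitters' processing notes; which aligner, counter and gene filter they used is not given in the sources used here. Scaled columns were left aside. Another 2 columns matched no described sample and were left out. Counts were fitted with edgeR 4.0.16 (R 4.3.3, limma 3.58.1): filterByExpr, TMM scaling and a robust quasi-likelihood model of all 18 libraries with a coefficient per group. Tests were two-sided, adjusted by Benjamini-Hochberg over all 10597 tested genes; called means an adjusted p under 0.05. CPM are TMM-scaled. The deepest library held 2440234 counts and the shallowest 154727, which limits precision for low genes.

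Text names, per comparison of 4 against 4 libraries, up to 10 called members in each direction whose libraries do not overlap and whose higher group reaches 20 CPM, up to 5 in other comparisons, the 2 most abundant per substrate class and a fixed set of 19 genes, of which 18 are in the table. Members, classes and lists were chosen with earlier results of these data known. Markers of 13 cell types were summed per library. On simulated counts for monocyte-derived against host microglia, with 10065 genes, 84% of genes changed by 1 on the log2 scale and 100% of those changed by 2 were called. Of the calls, 5.15% were of unchanged genes. Changes were set only in genes averaging at least 10 counts, and all genes had 1 spread (coefficient of variation 0.16). The recovery therefore does not cover genes with lower counts. No pairing of samples by replicate number was seen or assumed, and it is not excluded. Alternatives were RLE factors, no filter, DESeq2 1.42.0, fits of the compared groups alone, a replicate block, and leaving out each library or the 3 shallow ones. Positions come from GENCODE vM21 (186 members matched by symbol). Of the named members, 1 is not reported here.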

Additional observations from a re-analysis of the deposited data

Results flagged for a closer look

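Within groups of 4 libraries, 228 sets of values of named members were searched for a library far from the other 3, and 13 were found, beside a chance rate of about 5%. Of these, 4 were in the shallow HSC-derived microglia libraries. Replicate 3 of that group stood high for Slc25a20 (25.5 CPM, others 15.0 to 15.6) and Slc28a2 (35.7, others 19.5 to 21.9), and replicate 4 for Slc39a4 (42.8, others 9.86 to 15.3) and Slc48a1 (54.5, others 35.7 to 38.3). Replicate 2 held the only counts of Slc7a11 in HSC-derived microglia (2.73 CPM).

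In host microglia, replicate 2 was high for Slc9a3r1 (39.4 CPM, others 29.9 to 30.02). In monocyte-derived microglia, Slc36a1 was high in replicate 1 (88.8, others 58.7 to 62.6), Slc44a1 in replicate 3 (101, others 73.8 to 78.2), and Slc2a6 low in replicate 2 (30.5, others 42.5 to 43). In monocyte-derived leptomeningeal macrophages, replicate 1 was high for Slc16a10 (42.6, others 20.7 to 24.1) and Slc46a3 (67.8, others 47.5 to 49.1), replicate 4 for Slc25a20 (28.1, others 18.2 to 19), and replicate 3 low for Slc7a8 (43.7, others 60.8 to 62.2).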

How the results depend on the processing

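Of 117 calls of named members, none changed direction in any alternative that gave it a value, and 87 were never lost; a few had no value in the fit of the compared groups alone. The other calls were not followed gene by gene. Of 21 named members not called between monocyte-derived and host microglia, 6 were called without the shallow libraries and 8 in the fit of those groups alone. Slc9a3r1, Slc15a3, Slc29a1, Slc38a2 and Slc39a1 were called in both, Slc7a5 only in the first, and Slc37a2, Slc46a3 and Slc30a9 only in the second. With 1 library left out, called members ranged from 47 to 59 for monocyte-derived and from 40 to 53 for HSC-derived against host microglia, from 50 to 69 and from 6 to 21 for leptomeningeal macrophages against microglia of monocyte and HSC origin, from 0 to 3 for each comparison between origins, and 0 for the interaction. In HSC-derived cells the lowest of these counts came without leptomeningeal replicate 2, where replicate 1 alone stands for its group and is assumed to vary like the others, and a fit of these 2 groups alone called 0; the cause was not tested. DESeq2 called 1 member between both donor-derived microglia groups. Without the shallow libraries, 70 and 52 members were called against host microglia and 87 between compartments in monocyte-derived cells. The shares of all genes called in that fit are not given here, so these counts are not read as particular to the members. Deviations from group means gave no sign that replicate numbers pair samples. Their correlation had a median of 0.0009 for equal numbers, with 1 of 32 over 0.1. For different numbers it was -0.002, with 3 of 96 over 0.1. Pairing is not excluded, since the deviations come from few libraries per group. A replicate block gave 53, 42, 56, 21 and, in the other 3 comparisons, 0 called members, and lost the calls of Slc16a10, Slc25a5, Slc29a1 and Slc37a2 in HSC-derived against host microglia and of Slc29a1 in monocyte-derived leptomeningeal macrophages.
Over all genes, calls between both donor-derived microglia groups (200) ranged from 31 to 555 with 1 library left out, those between leptomeningeal groups (32) from 12 to 90, those of the interaction (6) from 0 to 40, and those between compartments in HSC-derived cells (1029) from 363 to 1241.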

Other observations

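Some members with known roles in macrophages were not called against host microglia in either donor-derived group. Slc15a3, a peptide and histidine carrier of lysosomes, had means of 174, 142 and 152 CPM in host, monocyte-derived and HSC-derived microglia; it was called in monocyte-derived microglia without the shallow libraries and in the fit of the compared groups alone. Slc6a6, the taurine carrier, and Slc30a1, a zinc exporter, had log2 changes of 0.14 and 0.15 in monocyte-derived and -0.22 and 0.13 in HSC-derived microglia.

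Low members outside the rule for named genes, picked after their values were seen, followed the donor-derived cells or the leptomeninges. Slc25a24, a calcium-regulated mitochondrial ATP-Mg/phosphate carrier, had 3 counts in host and 17 in monocyte-derived microglia (ratio 7.997, 95% exact interval 2.31 to 42.6), and rose again in monocyte-derived leptomeningeal macrophages (log2 change 2.53 ± 0.42). Slc41a2, a magnesium carrier, had 0 counts in host and 7 in monocyte-derived microglia, at least 3.29-fold higher when 3 counts are taken over the host group. Slc12a5, a potassium-chloride cotransporter, rose in leptomeningeal macrophages of monocyte origin by 2.64, and had 10 counts in the HSC-derived pair against 2 in microglia (ratio 13.2, interval 2.82 to 124). Astrocyte markers summed to 28.4 to 45.02 CPM in monocyte-derived leptomeningeal macrophages and 5.57 to 8.23 in microglia of that origin. Oligodendrocyte markers summed to 105.5 to 145 against 71.1 to 84.9 CPM in the same groups. Neuron markers, with 2 of 5 present in the counts, overlapped, at 4.68 to 12.05 against 4.94 to 12.7 CPM. Neutrophil and fibroblast markers, given above, were also higher in the leptomeningeal libraries. In these bulk libraries the part of other cells in these low values was not tested.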
